A study of Rattus norvegicus with 24 samples.

Results

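The nuclear-encoded subunits of oxidative phosphorylation were followed through 6 tissues and 4 ages of the rat. A gene was taken as a member if the array's annotation gave its probe set a single symbol that starts with Ndufa, Ndufb, Ndufc, Ndufs or Ndufv and a digit, with Uqcr, with Cox4 to Cox8 or with Atp5, or that is Sdha, Sdhb, Sdhc, Sdhd or Cyc1. This gave 79 genes on 84 probe sets, out of 10411 genes and 15923 probe sets: 35 genes of complex I, 4 of complex II, 8 of complex III, 16 of complex IV and 16 of complex V. The rats were male Sprague-Dawley animals of 4, 10, 18 or 24 months with no treatment, and the hypothalamus, pituitary, spleen lymphocytes, liver, kidney and bone were taken from each. Equal amounts of RNA from 10 rats were pooled per tissue and age and put on 1 Affymetrix array, 24 arrays in all, so the arrays of an age share their animals and no value shows the spread between rats. The values are MAS5.0 signals, linear fluorescence intensities that the authors scaled to a target of 500 on every array.

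Oxidative phosphorylation takes electrons from NADH at complex I (NADH dehydrogenase) and from succinate at complex II (succinate dehydrogenase), passes them through complex III (cytochrome bc1) and cytochrome c to oxygen at complex IV (cytochrome c oxidase), and uses the resulting proton gradient to make ATP at complex V (ATP synthase). Complex II is also an enzyme of the TCA cycle, and it is the only complex whose subunits are all nuclear genes. The proximal tubule of the kidney and the hepatocyte are textbook examples of cells rich in mitochondria, whereas resting lymphocytes hold few. The list holds some genes that are not plain subunits: Atp5if1 is an inhibitor of ATP synthase, Cox7a2l a factor of respiratory supercomplexes, Ndufa4 is now counted with complex IV, and Cox6c-ps1 is by its name a pseudogene whose probes may read the Cox6c transcript.

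The markers of the labelled tissues were where the labels put them. The summed signal of 8 hepatocyte markers was 199768 to 215079 in liver, that of 9 kidney tubule markers 43157 to 50229 in kidney, and that of 5 T cell markers 24493 to 29353 in spleen lymphocytes. In bone the osteoblast markers summed to between 33514 and 91997, the erythroid ones to between 38334 and 63248 and the neutrophil ones to between 31244 and 79948, so the bone samples carried markers of marrow cells. Skeletal muscle markers summed to 5075 to 12176 in bone and to 7187 to 11116 in liver. Of the 7 tested in the tissue comparison described below, 5 were higher and 1 lower in bone, with a median of 2.29 (log2). In liver 1 was higher and 2 lower, with a median of -0.29. Of all genes 27.4% were higher and 26.9% lower in bone, and 21.6% and 42.7% in liver. One hypothalamus array reached 12721 for the hepatocyte markers. Array medians ran from 213 to 309. The median tissue difference of all genes tested changed with the scaling. It was -0.25 (log2) in liver, 0.11 in pituitary, 0.00 in bone and -0.04 in spleen lymphocytes. It became -0.13, 0.00, -0.06 and 0.01 after quantile normalization and -0.12, -0.08, -0.11 and 0.09 after centring on the array median.

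Of the 79 genes, 75 passed the filter, a signal of at least 100 on 12 or more arrays, and 72 of them reached 100 on all 24. The 4 that did not pass were Cox6a2, Cox6b2, Cox7a1 and Cox8b, the tissue-restricted isoforms of complex IV known from striated muscle or testis. Cox6a2 had signals of 130, 98.3, 332 and 70.7 in bone from 4 to 24 months and stayed at or below 120 on the other 20 arrays. Cox8b was above 100 on 1 array, at 135 in bone at 10 months, and Cox6b2 on 1, at 151 in bone at 18 months. Cox7a1 did not follow bone: it ran from 170.2 to 300.1 in hypothalamus and had 30.5, 49.0, 267 and 32.6 in bone. For Cox6a2, Cox6b2 and Cox7a1 the 18-month array was the highest of the bone arrays. The partners of Cox6a2 and Cox8b were bright in every tissue: Cox6a1 ran from 1770 to 7700 and Cox8a from 4478 to 17709. Cox4i2, the alternative form of Cox4i1, passed the filter with 108 to 482, while Cox4i1 itself lay between 6278 and 12377. A further 7 probe sets carry a member symbol together with another symbol and were left out, among them the probe sets of Ndufa10, Cox7a2, Uqcrb, Atp5mc1 and Atp5mc2. For Cox5a this left a dim probe set of 106 to 844.

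Levels were mostly highest in kidney and liver and lowest in spleen lymphocytes and bone. The level of a complex on an array was taken as the median over its subunits of the log2 signal minus that gene's mean over the 24 arrays. Averaged over the 4 ages, complex II stood at 1.43 ± 0.113 (SD, n = 4) in kidney and at -0.85 ± 0.12 in spleen lymphocytes. Complex I stood at 0.64 ± 0.0546 in kidney, 0.55 ± 0.251 in liver, -0.64 ± 0.0962 in spleen lymphocytes and -0.53 ± 0.118 in bone. Complex IV differed less between tissues, from 0.45 ± 0.0928 in kidney to -0.39 ± 0.115 in bone. Its genes include Cox7a2l, not a plain subunit, and the dim Cox4i2, Cox5a and Cox6c-ps1, and its bright subunits were not averaged apart. Complex III was lowest in pituitary, at -0.49 ± 0.171, next to -0.45 ± 0.155 in spleen lymphocytes and -0.44 ± 0.0964 in bone, differences smaller than the spread over ages. Kidney was highest for every complex under each scaling, but the place of liver depended on it. After quantile normalization the median over all members was 0.17 in liver and 0.18 in hypothalamus, and complexes II, III, IV and V had higher levels in hypothalamus than in liver. Of the 75 genes, 39 had their highest mean in kidney and 27 in liver, and 33 had their lowest in spleen lymphocytes and 25 in bone. In these bulk samples, fewer cells rich in mitochondria and less RNA per cell cannot be told apart.

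**Figure D1:**
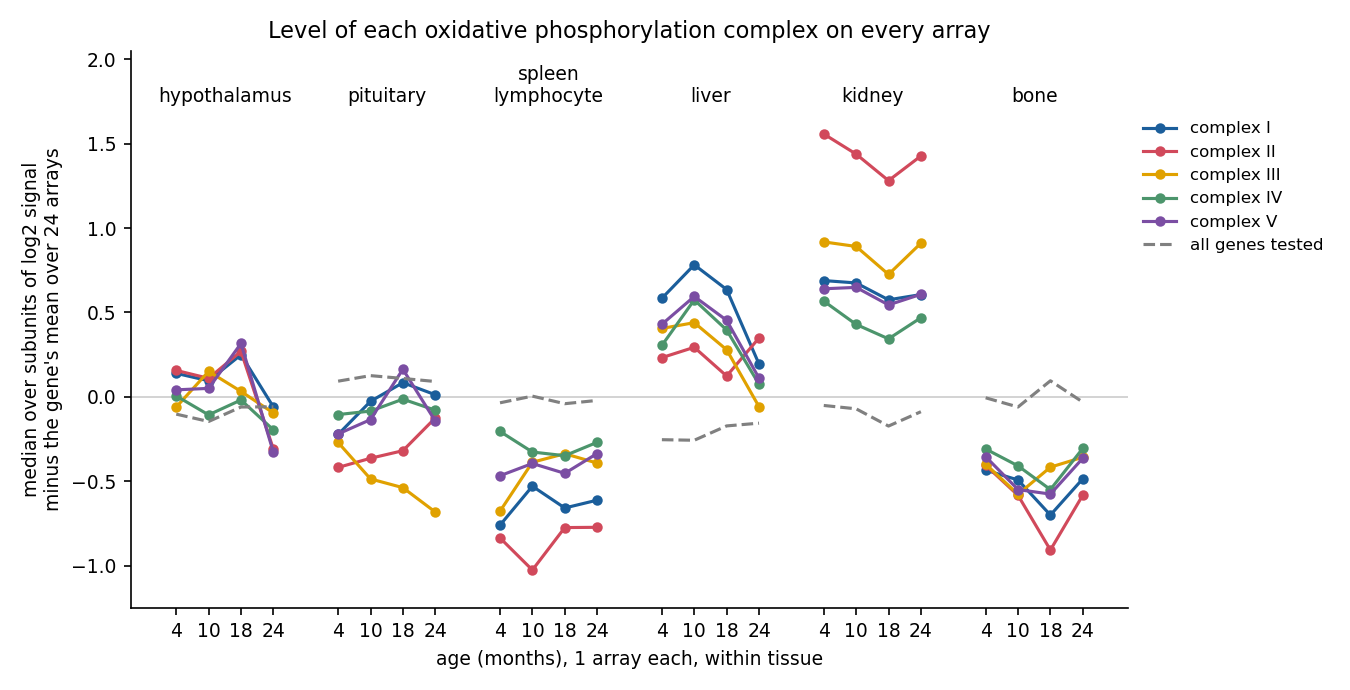
Level of each complex (coloured lines) on the 24 arrays, as the median over its subunits of the log2 signal minus the gene's mean over all arrays; points are the ages of a tissue in months, 1 array each, and the dashed line is the median of all genes tested. Kidney and liver lie above 0 and spleen lymphocytes and bone below for all 5 complexes but for complex III in liver at 24 months (after quantile normalization the liver means of complexes III and IV fell below 0), and complex II stands apart from the other complexes in kidney.

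Each tissue was then compared with the mean of the other 5 by limma, with tissue and age as factors and the 4 ages of a tissue in the place of replicates. The adjusted p-values were computed over all 8452 genes tested. Since tissues differ in many genes, each tissue's count of members is given with the share of all genes called in the same direction.

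In kidney, 62 of 75 members (82.7%) were higher and 2 lower, against 23.6% of all genes higher and 31.4% lower, and the median difference was 0.79 (log2; all genes, -0.13). Complex II led with 4 of 4 higher and a median of 1.71. Complex III followed with 7 of 8 and 1.05, then complex I with 28 of 35 and 0.79, complex V with 15 of 16 and 0.73, and complex IV with 8 of 12 and 0.54. The 12 genes of complex IV include Cox7a2l and the dim Cox4i2, Cox5a and Cox6c-ps1.

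Sdhc, a membrane anchor of succinate dehydrogenase, had signals of 9397, 9032, 8127 and 8560 in kidney at 4, 10, 18 and 24 months and of 3009, 2838, 2120 and 3681 in liver. No array of another tissue exceeded 3934, and the difference was 1.91 ± 0.136 (log2, SE, limma adjusted p = 5.68e-11). Sdhd, the other anchor, had 7402, 7447, 6256 and 6693 in kidney and at most 2932 elsewhere (1.79 ± 0.129, limma adjusted p = 6.02e-11). Its second probe set, which was dimmer, was also highest on the 4 kidney arrays, at 2841 to 4694 against at most 1457. Sdha, the flavoprotein, ran from 5810 to 6879 in kidney and to at most 4546 elsewhere (1.55 ± 0.111, limma adjusted p = 6.02e-11). Sdhb, the iron-sulfur subunit, ran from 5671 to 7031 and to at most 3988 elsewhere (1.62 ± 0.167, limma adjusted p = 2.8e-08). For each of these 4 genes all kidney arrays lay above the other 20. Over all members this held for 17 of 75 (22.7%), against 5.54% of all genes.

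Uqcr10, a small subunit of complex III, had 7997, 7883, 9905 and 7455 in kidney and 6894, 7219, 5641 and 2822 in liver, with every other array at 3324 or below (1.78 ± 0.177, limma adjusted p = 1.54e-08). Ndufs3, a core subunit of the hydrophilic arm of complex I, ran from 3189 to 3808 in kidney and did not exceed 2192 elsewhere (1.54 ± 0.156, limma adjusted p = 2.01e-08). Atp5po, a stalk subunit of ATP synthase, was higher by 1.52 ± 0.133 (limma adjusted p = 1.91e-09), and Atp5f1a, its alpha subunit, by 1.45 ± 0.116 (limma adjusted p = 3.76e-10). The 6 core subunits of complex I, which carry its redox centres, were all higher in kidney, with a median of 1.14, and 22 of 29 accessory subunits were, with a median of 0.65. Here and below, the accessory subunits include Ndufa4, now counted with complex IV, and the dim Ndufa4l2. Among the isoforms of complex IV, Cox8a (1.09), Cox6a1 (0.98), Cox6b1 (0.53) and Cox4i1 (0.41) were higher in kidney, and Cox4i2 had 0.01. The members lower in kidney were Cox7a2l, by -0.89 ± 0.121 (limma adjusted p = 1.67e-06), and the dim Cox5a probe set, by -0.84 ± 0.296 (limma adjusted p = 0.0204). The latter call was lost without the 18-month array (-0.49, limma adjusted p = 0.207) and without the 24-month array (-0.73, limma adjusted p = 0.101).

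In liver, 49 of 75 members (65.3%) were higher and 2 lower, against 21.6% and 42.7% of all genes, with a median of 0.52 (all genes, -0.25). After quantile normalization 34 were higher and 11 lower, with a median of 0.21. Complex I led here with 25 of 35 higher and a median of 0.66, and its accessory subunits had 22 of 29 and 0.68 while its core subunits had 3 of 6 and 0.41. Complex II had 2 of 4 higher, complex III 4 of 8, complex IV 8 of 12 and complex V 10 of 16.

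The largest differences in liver were those of Ndufa3, Ndufc1 and Uqcrq. Ndufa3, an accessory subunit of the membrane arm, had 11895, 12017, 11709 and 5553 in liver and 5426, 5500, 4313 and 5551 in kidney (liver against the rest, 1.94 ± 0.164, limma adjusted p = 7.34e-10). The first 3 liver ages lay far above every other array, and the last barely so. Ndufc1, another accessory subunit, ran from 3674 to 5338 in liver and to at most 3167 elsewhere (1.84 ± 0.136, limma adjusted p = 6.84e-11). Uqcrq, a small subunit of complex III, had 14738, 14296, 14802 and 11807 in liver and 6320, 6182, 6763 and 6122 in kidney (1.81 ± 0.117, limma adjusted p = 6.51e-12). All liver arrays lay above the other 20 for 5 of 75 members, or 6.67%, which is near the 5.64% of all genes.

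Atp5if1, which blocks ATP hydrolysis by ATP synthase, went the other way. Its signals in liver were 647, 788, 792 and 505, and no array of another tissue was below 1365 (-1.72 ± 0.14, limma adjusted p = 3.53e-10). Of its other probe sets, 1 was at or below 133 on every array, and the other was highest in liver, at 173, 289, 358 and 138, with 113 or less elsewhere. The probe sets thus disagree, and with their mean the difference was -0.21 (limma adjusted p = 0.0831). The second probe sets of Ndufv3 and Atp5me were dim, at 22.1 to 160.5 and 36.3 to 207.9. Cox7a2l was the other member called lower in liver (-0.60 ± 0.121, limma adjusted p = 0.000177).

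Kidney and liver were also set side by side by whether their 4 arrays overlapped. Over all genes, 26.5% lay wholly above liver in kidney and 17.4% wholly below. Of all members, 22 of 75 lay wholly above (29.3%), near the share of all genes, and 7 wholly below (9.33%). By complex, complex II had 4 of 4 above, complex III 4 of 8, complex V 7 of 16, complex IV 1 of 12 and complex I 6 of 35. Complexes III, IV and V had 1 each wholly below. Within complex I, 3 of 6 core subunits and 3 of 29 accessory subunits were above, and 4 accessory subunits were below. The members with the highest kidney signal relative to liver were Atp5if1 (1.76, log2 difference of the means), Sdhc (1.62), Ndufs3 (1.36) and Uqcrfs1, the Rieske iron-sulfur protein (1.34). The lowest were Uqcrq (-1.13), Cox5a (-1.09), Ndufa7 (-0.97) and Ndufa3 (-0.93).

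**Figure D2:**
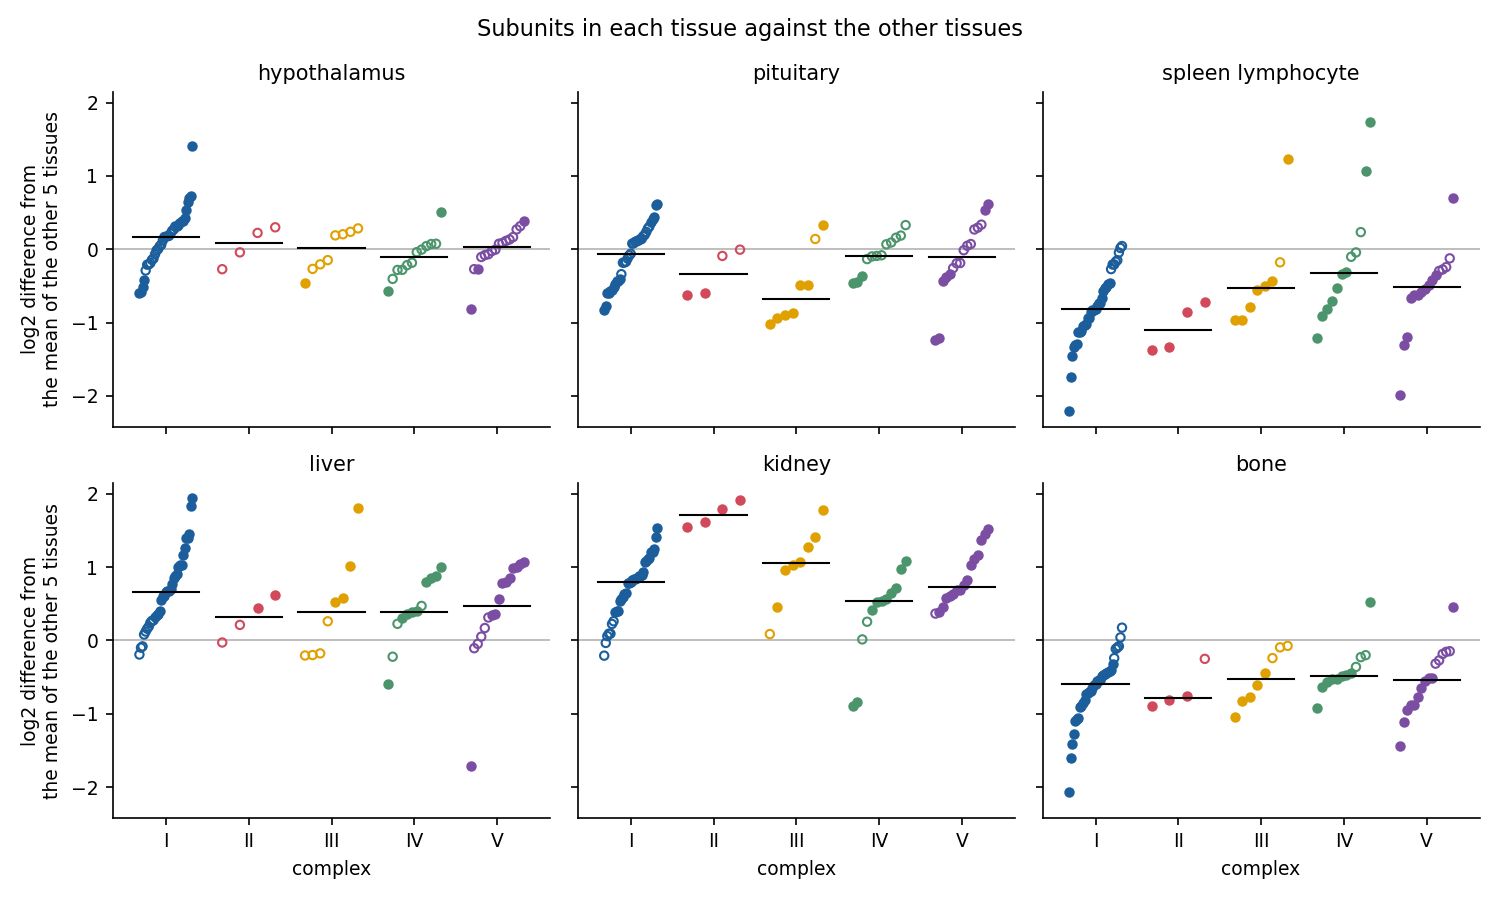
Log2 difference of each of 75 subunits in a tissue from the mean of the other 5 tissues (vertical axis), by complex (horizontal axis); a point is a gene, filled where limma's adjusted p was under 0.05, and the black line is the median of the complex. The 4 points of complex II in kidney lie between 1.55 and 1.91, and single points stand far from their complex, such as Atp5if1 at -1.72 in liver and Cox7a2l at 1.74 in spleen lymphocytes.

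In spleen lymphocytes, 55 of 75 members (73.3%) were lower and 4 higher, against 34.0% and 31.2% of all genes, with a median of -0.63 (all genes, -0.04). All 4 subunits of complex II were lower (median -1.10), as were 27 of 35 of complex I (-0.82), 11 of 16 of complex V, 6 of 8 of complex III and 7 of 12 of complex IV (-0.33). Ndufa11, an accessory subunit of the membrane arm of complex I, had 358, 469, 400 and 457, and no other array was below 914 (-2.21 ± 0.14, limma adjusted p = 5.7e-12). Atp5mg, subunit g of ATP synthase, had 1665, 1921, 857 and 1020 and was at 2584 or more on all other arrays (-1.99 ± 0.194, limma adjusted p = 7.4e-09). Ndufb8, an accessory subunit, had 84.9, 123, 156 and 251 and overlapped with liver at 4 months, at 205, and bone at 18 months, at 227 (-1.74 ± 0.245, limma adjusted p = 1.75e-06). For 11 of 75 members all spleen lymphocyte arrays lay below the other 20, against 3.66% of all genes.

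The 4 members higher in spleen lymphocytes were far from this pattern. Cox7a2l, which helps to join complexes III and IV, had 10945, 11070, 9541 and 6727, and every other array was at 3911 or below (1.74 ± 0.121, limma adjusted p = 3e-11). Uqcrh, the hinge protein of complex III, had 13089, 13061, 14141 and 11586, and every other array was at 8358 or below (1.23 ± 0.131, limma adjusted p = 2.9e-08). Neither gene overlapped with another tissue at any age. Atp5f1e, the epsilon subunit of ATP synthase, had 9745, 11038, 11666 and 6906 (0.69 ± 0.146, limma adjusted p = 0.000245) and overlapped with liver, kidney and pituitary. The dim Cox5a probe set had 844, 642, 485 and 486 (1.06 ± 0.296, limma adjusted p = 0.00331).

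**Figure D3:**
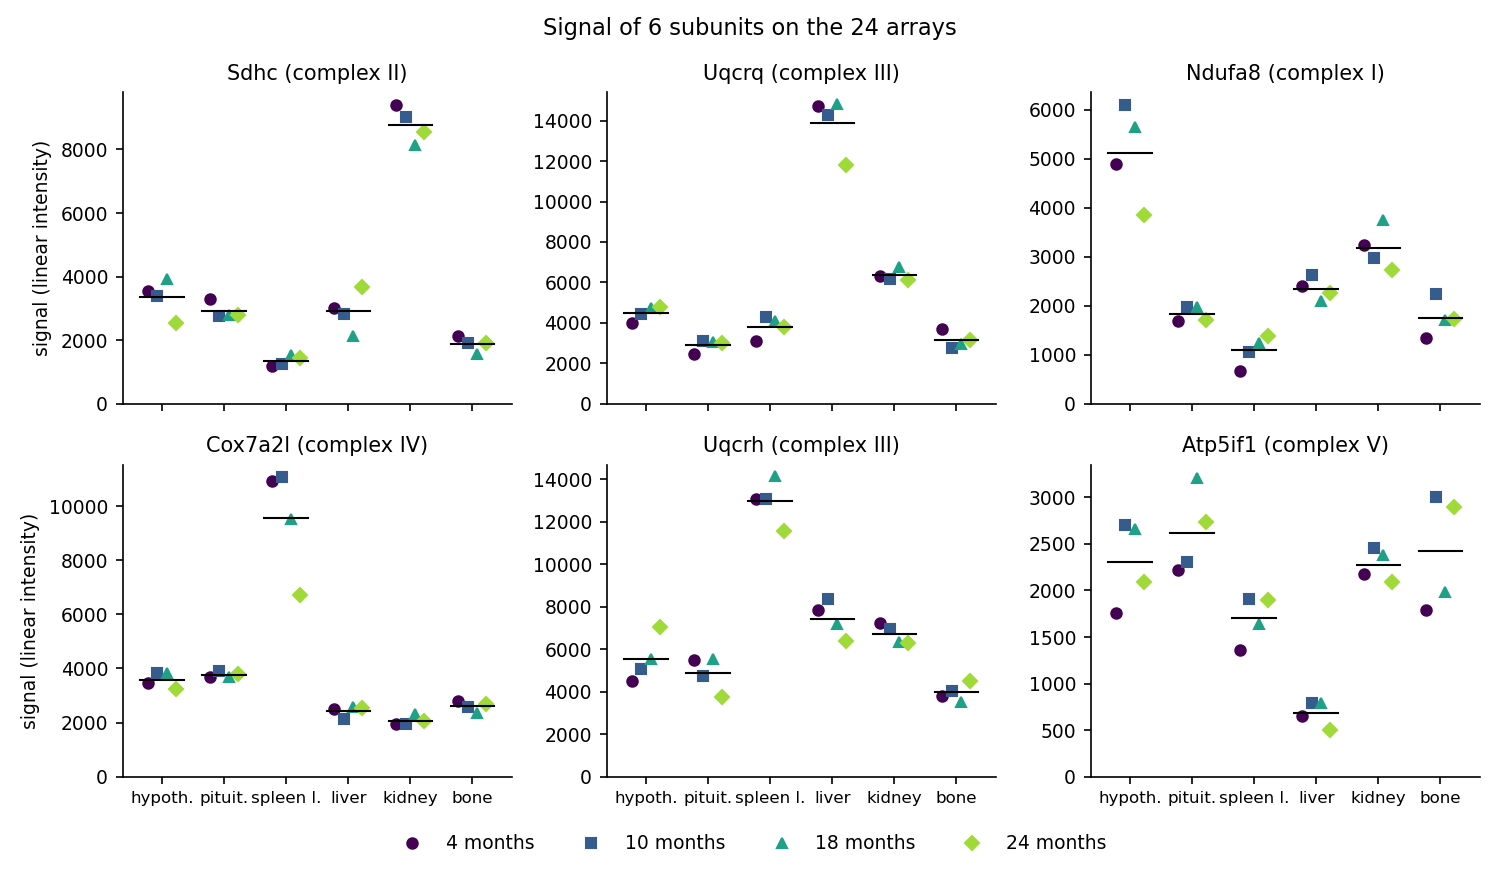
Linear signal of 6 subunits (vertical axes start at 0) in the 6 tissues; symbols are the 4 ages, 1 array each, and the black line is their mean. Sdhc was highest in kidney, Uqcrq in liver, Ndufa8 in hypothalamus, and Cox7a2l and Uqcrh in spleen lymphocytes, while Atp5if1 was lowest in liver, each with no overlap with the other tissues.

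In bone, 55 of 75 members (73.3%) were lower and 2 higher, against 26.9% and 27.4% of all genes, with a median of -0.54 (all genes, 0.00). The share lower was alike across complexes, with 29 of 35 for complex I, 3 of 4 for complex II, 5 of 8 for complex III, 8 of 12 for complex IV and 10 of 16 for complex V. Ndufa3 was again at the end of the order: it had 1105, 871, 916 and 1020, below every other array (-2.06 ± 0.164, limma adjusted p = 4.61e-10). Ndufc1 had 713, 626, 484 and 599, overlapping only with spleen lymphocytes at 4 months (-1.61 ± 0.136, limma adjusted p = 1.19e-09). Atp5f1e had 3946, 2725, 2120 and 2762 and overlapped with the hypothalamus at 4 months (-1.44 ± 0.146, limma adjusted p = 2.22e-08). For 5 of 75 members all bone arrays lay below the other 20, against 0.876% of all genes. The members called higher were Atp5if1 (0.45 ± 0.14, limma adjusted p = 0.00871) and the dim Cox4i2 (0.53 ± 0.217, limma adjusted p = 0.0452). The Cox4i2 call rests on the 18-month array, where its signal was 482 against 291, 169 and 183 at the other ages, and without that array the difference was 0.10 (limma adjusted p = 0.646). Without the 10-month or the 24-month array the Atp5if1 call was lost too (0.38 and 0.33, limma adjusted p = 0.0887 and 0.0949).

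In the hypothalamus, 11 members were higher and 8 lower, against 25.6% and 33.0% of all genes, with a median of 0.06 (all genes, -0.13). Quantile normalization gave 25 and 6, and centring on the median 7 and 8, so the balance of this tissue depends on the scaling. Ndufa8, an accessory subunit of complex I, had 4889, 6093, 5656 and 3848, all above the highest array elsewhere, 3745 in kidney (1.41 ± 0.147, limma adjusted p = 2.61e-08). Ndufb8 (0.73 ± 0.245, limma adjusted p = 0.0145) and Ndufa5 (0.70 ± 0.147, limma adjusted p = 0.000291) followed, and the Ndufb8 call was lost without the 18-month array (0.57, limma adjusted p = 0.102). Lowest were Atp5f1e (-0.81), Ndufb11 (-0.60) and Ndufs4 (-0.58), with limma adjusted p-values of 5.13e-05, 0.000648 and 0.00112.

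In the pituitary, 8 members were higher and 27 lower, against 32.3% and 21.6% of all genes, with a median of -0.09 (all genes, 0.11). Quantile normalization gave 21 and 17, and centring on the median 2 and 30. Complex III stood out among the complexes with 6 of 8 lower and a median of -0.68, led by Uqcr10 (-1.03 ± 0.177, limma adjusted p = 4.29e-05), the core protein Uqcrc1 (-0.94 ± 0.117, limma adjusted p = 5.95e-07) and Uqcrq (-0.90 ± 0.117, limma adjusted p = 1.08e-06). Atp5po, with 1408, 1943, 1996 and 2041, and Atp5mpl, a small membrane subunit, with 968, 1312, 1870 and 1462, were the lowest of all (-1.24 ± 0.133 and -1.21 ± 0.147, limma adjusted p = 6.67e-08 and 4.05e-07), and both overlapped with bone. Atp5if1 (0.62), Ndufa4l2 (0.61) and Ndufb11 (0.60) were the highest, with limma adjusted p-values of 0.000779, 0.0209 and 0.000769. Ndufa4l2 was dim, at 106 to 257 in pituitary, and its call was lost under quantile normalization (0.44, limma adjusted p = 0.0827) and without the 10, 18 or 24-month array.

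The genes of neighbouring pathways, described for comparison, followed only in part. Their counts stand against the shares of all genes given above for each tissue. In kidney 11 of 11 measured TCA cycle enzymes were higher (23.6% of all genes), with a median of 1.39, from Suclg2 of succinyl-CoA ligase (1.93) to the malate dehydrogenase Mdh2 (0.88), and 9 were lower in spleen lymphocytes (34.0% of all genes). In liver 4 of them were higher and 4 were lower (36.4% each, against 21.6% and 42.7% of all genes), among the latter citrate synthase, Cs, at -2.01. Of 6 carriers and channels that exchange nucleotides and phosphate, 5 were higher in kidney (23.6% of all genes) and 4 lower in liver (42.7%), where the adenine nucleotide translocator Slc25a4 was at -3.78. Glycolysis had 12 of 14 enzymes higher in the hypothalamus (median 1.09, 25.6% of all genes) and 10 lower in liver (median -1.37, 42.7% of all genes), the latter led by the lactate dehydrogenase subunit Ldhb at -3.50. None of the 13 subunits encoded by mitochondrial DNA was found on the array by symbol.

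Across the 24 arrays, subunits of a complex moved together to different degrees. As a description over pairs that share arrays, the median Pearson correlation of log2 signals was 0.88 for the 6 pairs within complex II, 0.66 for the 595 pairs within complex I, 0.61 within complex V, 0.57 within complex III and 0.38 within complex IV. After the mean of each tissue was taken out, so that ages within tissues remained, these became 0.46, 0.30, 0.36, 0.07 and 0.11. Pairs from different complexes were often as alike. Their medians ran from 0.51 (complexes III and IV) to 0.75 (II and III), and from 0.07 (II and IV) to 0.33 (I and V) without the tissue means. Before the tissue means were taken out, only complex II had a median above all of its medians with other complexes. The genes least like the other members were Cox7a2l, with a median correlation of -0.55 with them, Cox5a (-0.29), Cox4i2 (-0.25) and Atp5if1 (-0.22). Of these, Cox7a2l, Cox5a and Cox4i2 were counted in complex IV and enter its low median. The genes most like the other members were Ndufa4 (0.78), Ndufb7 (0.77) and Cox8a (0.77).

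Promoters were compared because most members shared a tissue pattern. RefSeq promoters (GRCr8, 250 bases before to 50 after the start) were at hand for 70 of the 79 genes, and were searched on both strands for the core letters of sites known for nuclear respiratory genes. GCGCATGC, of NRF-1 sites, was in 7 of them (10.0%; 2.47% of all 33469 promoters and 4.91% of those of the genes tested). CCGGAAG, of ETS sites, was in 20 (28.6%; 8.75% and 16.9%), and AAGATGGC, of YY1 sites, in 16 (22.9%; 3.17% and 5.51%). In no member promoter did the ETS and YY1 letters overlap. Of the 70, 32 held at least 1 of the 3 and 2 held all, Ndufa6 and Atp5me. The promoters printed in lower case, with matches in capitals, are these, Sdhb of complex II and Cox7a2l, the member least like the rest. Sdhb held both the NRF-1 and the ETS letters. Cox7a2l held none, as did most of the 70, and a link between the letters and the tissue pattern was not tested.
Ndufa6 (chr7:115750268-115750567, minus strand): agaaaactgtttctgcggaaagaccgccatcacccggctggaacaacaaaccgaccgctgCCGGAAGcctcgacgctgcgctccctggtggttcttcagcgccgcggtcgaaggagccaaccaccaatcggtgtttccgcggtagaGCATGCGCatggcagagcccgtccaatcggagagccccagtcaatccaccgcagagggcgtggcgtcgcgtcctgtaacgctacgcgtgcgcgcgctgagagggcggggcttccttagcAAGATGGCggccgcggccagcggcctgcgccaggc
Atp5me (chr14:1464610-1464909, plus strand): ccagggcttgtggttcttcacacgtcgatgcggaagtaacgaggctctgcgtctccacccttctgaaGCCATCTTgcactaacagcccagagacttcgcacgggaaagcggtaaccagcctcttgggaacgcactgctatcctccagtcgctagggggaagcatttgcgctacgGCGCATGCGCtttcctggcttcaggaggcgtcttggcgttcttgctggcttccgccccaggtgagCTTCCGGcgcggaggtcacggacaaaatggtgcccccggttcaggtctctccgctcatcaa
Sdhb (chr5:158547684-158547983, plus strand): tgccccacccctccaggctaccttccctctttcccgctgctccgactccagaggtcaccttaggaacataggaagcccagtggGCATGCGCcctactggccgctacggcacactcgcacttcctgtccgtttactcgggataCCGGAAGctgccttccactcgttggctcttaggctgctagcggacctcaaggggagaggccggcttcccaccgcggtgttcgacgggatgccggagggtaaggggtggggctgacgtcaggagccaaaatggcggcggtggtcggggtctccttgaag
Cox7a2l (chr6:16936324-16936623, plus strand): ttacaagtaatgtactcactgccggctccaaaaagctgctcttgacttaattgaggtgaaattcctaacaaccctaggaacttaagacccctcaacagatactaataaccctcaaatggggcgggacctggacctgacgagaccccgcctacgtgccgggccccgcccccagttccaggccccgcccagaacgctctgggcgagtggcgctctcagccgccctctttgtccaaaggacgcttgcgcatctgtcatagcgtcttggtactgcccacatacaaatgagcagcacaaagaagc
A match is a description of the letters, and binding was not measured. Ndufa6 was higher in liver (1.39) and kidney (0.84), Sdhb in kidney (1.62) and liver (0.44), and Cox7a2l in spleen lymphocytes only, whereas Atp5me was higher in liver (0.85) and had 0.37 in kidney (limma adjusted p = 0.0841).

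Age was tested next. Averaged over the 6 tissues, 0 of 75 members and 0.0% of all genes passed limma's threshold from 4 to 10, 10 to 18, 18 to 24 or 4 to 24 months, and 4, 0, 0 and 2 members (5.33%, 0.0%, 0.0% and 2.67%) had an unadjusted p under 0.05, against 5.28%, 2.64%, 2.91% and 6.27% of all genes. The smallest p-values belonged to Atp5if1 from 4 to 10 months (0.39 ± 0.147, limma adjusted p = 0.861), Ndufb6 from 10 to 18 months (0.25 ± 0.155, limma adjusted p = 0.999), Ndufa5 from 18 to 24 months (-0.32 ± 0.155, limma adjusted p = 0.9998) and Atp5me, subunit e of ATP synthase, from 4 to 24 months (-0.45 ± 0.186, limma adjusted p = 0.741).

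A linear trend over the 4 ages of each tissue was called for 1 of 75 members in bone, the dim Cox5a probe set, against 0.461% of all genes rising there. Its signals were 127, 182, 453 and 454 (1.02 ± 0.249 log2 per 10 months, limma adjusted p = 0.0322). The call was lost without the 4, 18 or 24-month arrays. In the other 5 tissues 0 members were called, with 4, 3, 7, 6 and 0 at an unadjusted p under 0.05 in hypothalamus, pituitary, spleen lymphocytes, liver and kidney. These are 5.33%, 4.0%, 9.33%, 8.0% and 0.0% of the members, against 13.2%, 2.15%, 7.89%, 8.51% and 2.38% of all genes. With array weights, 2 downward trends were called in hypothalamus, those of Ndufs3 and Uqcrfs1. In liver the smallest p-values belonged to Atp5me (-0.73 ± 0.18, limma adjusted p = 0.198), Uqcr10 (-0.62 ± 0.205, limma adjusted p = 0.347) and Ndufb1 (-0.59 ± 0.201, limma adjusted p = 0.362). The slopes differed between tissues for 0 members and 0.864% of all genes, Cox5a again being nearest (limma adjusted p = 0.116), with 2 members (2.67%) at an unadjusted p under 0.05, against 12.2% of all genes.

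Between neighbouring ages of a tissue, where 1 array stands on each side and no test is possible, a gene was counted at a 2-fold change with at least 100 on both arrays. Over the 18 combinations of tissue and phase, 5 of 1335 member values were 2-fold higher and 12 were 2-fold lower. These are 0.375% and 0.899%, below the 1.97% and 1.9% of all genes, which were not matched to the members for signal. The dim Cox5a and Cox4i2 made up 4 of the 5 rises. From 10 to 18 months Cox5a was 2-fold higher in hypothalamus and bone and lower in kidney, and from 18 to 24 months Cox4i2 was 2-fold higher in liver and lower in bone. No other member passed 2-fold in the same phase in more than 1 tissue. With at least 200 on both arrays, 0.0773% of member values were higher and 0.696% lower, against 1.14% and 1.18% of all genes.

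Smaller differences were shared by most members in some tissues and phases. From 18 to 24 months, 64 of 74 members measured in the hypothalamus were lower, with a median change of -0.38 (all genes, -0.01), and 59 of 74 in liver, with -0.35 (all genes, 0.01). After quantile normalization these were 61 and 54 of 74, with medians of -0.40 and -0.24. The 24-month arrays had limma weights of 0.453 in hypothalamus and 0.666 in liver, each the lowest of its tissue. In bone 9 of 73 were lower, with a median of 0.20 (all genes, -0.03), but quantile normalization gave 34 of 73 and 0.04 and centring on the median 3 of 73 and 0.51, so the size of the bone difference depends on the scaling. The 18-month bone array had the highest array median, 309, and a limma weight of 0.338. From 10 to 18 months 55 of 74 members were lower in bone (median -0.16; all genes, 0.03). This difference too depends on the scaling: quantile normalization gave 40 of 74 and -0.01, and centring on the median 69 of 73 and -0.50. From 4 to 24 months 42 of 73 were lower in bone (-0.04; all genes, 0.02). In liver 16 of 74 and in pituitary 23 of 75 members were lower from 4 to 10 months, with medians of 0.18 and 0.25 (all genes, -0.003 and 0.02). After quantile normalization these were 26 of 74 and 23 of 74, with medians of 0.11 and 0.26. Over 4 to 24 months 61 of 75 were lower in hypothalamus and, counted separately, 61 of 75 in liver. The medians were -0.34 and -0.36 (all genes, -0.03 and 0.06). Quantile normalization gave 63 and 57 of 75, with medians of -0.41 and -0.25. In hypothalamus all complexes took part in the change from 18 to 24 months. They ranged from complex II, with 4 of 4 lower and a median of -0.62, to complex IV, with 9 of 11 and -0.29. In liver, in the same phase, complex V had the lowest median, with 14 of 16 lower and -0.64, and the accessory subunits of complex I had 25 of 28 lower and -0.46. The core subunits of complex I in liver had 3 of 6 lower and a median of 0.01, and complex II had 1 of 4 lower and 0.18.

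In the hypothalamus 4 members were 2-fold lower from 18 to 24 months, against 1.89% of all genes: Atp5mg, from 5548 to 2584, Ndufs3, from 2160 to 1052, Sdhb, from 3988 to 1922, and Uqcrfs1, from 3440 to 1666. For each of them the 24-month array was the lowest of the 4 ages. In liver 3 were 2-fold lower, against 1.53% of all genes, and all were accessory subunits of complex I. Quantile normalization changed these counts, to 7 in hypothalamus (2.34% of all genes) and to 1 of 74 in liver (2.08% of all genes), so the liver count no longer stood above all genes. Ndufb1 had 4870, 5095, 5337 and 1860 from 4 to 24 months, Ndufa3 the values given above, and Ndufa2 3129, 3928, 3841 and 1869. Atp5me had 6240, 4478, 3523 and 2133 in liver, each age below the one before. The log2 ratio of 3' to 5' probe sets, a measure of RNA integrity in which a lower value is better, changed on the same liver arrays from 2.06 to 0.74 for Gapdh and from 2.61 to 1.43 for Actb, and from 0.27 to 0.29 and from 1.21 to 1.10 in hypothalamus. The same ratio for hexokinase was higher at 24 months in both, going from -0.86 to -0.10 in liver and from 3.13 to 3.98 in hypothalamus. The part of RNA integrity in the result was not tested.

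**Figure D4:**
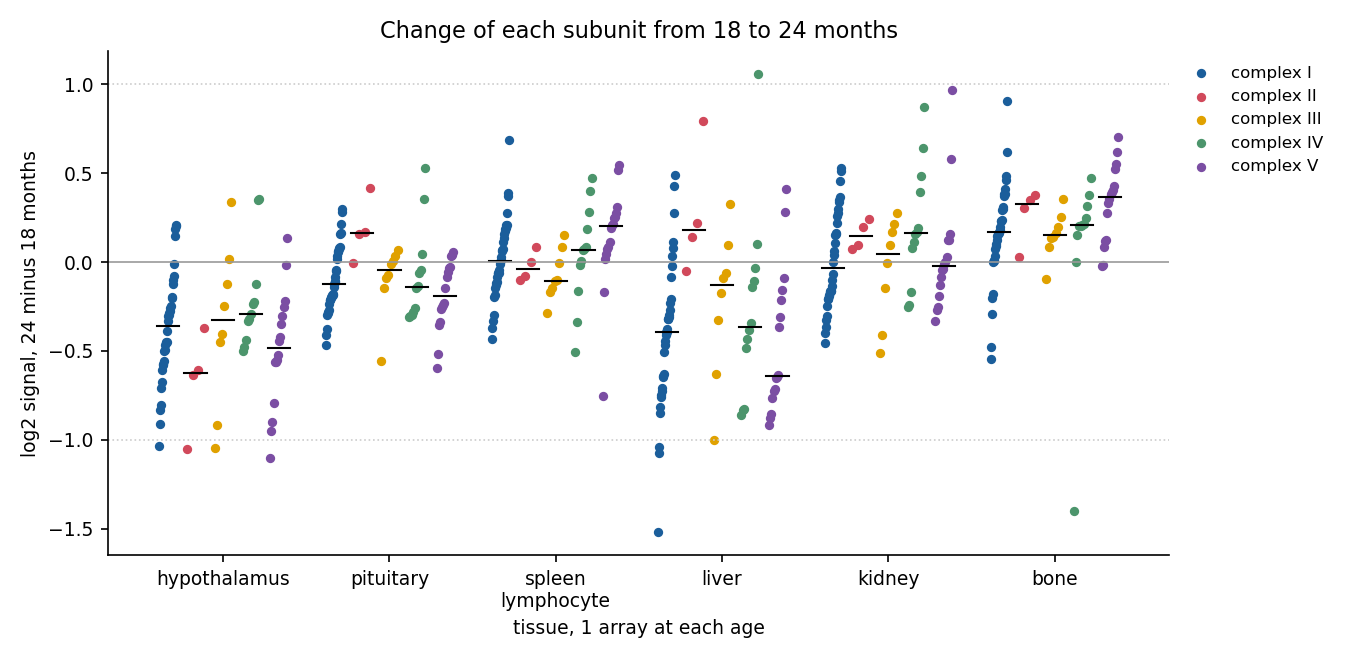
Log2 change of each subunit's signal from 18 to 24 months (vertical axis) by tissue and complex (colours); a point is a gene with at least 100 on both arrays, black lines are medians and dotted lines mark a 2-fold change. Most points lie below 0 in hypothalamus and liver and above 0 in bone (in bone not after quantile normalization, with 34 of 73 below 0 and a median of 0.04), and few pass the dotted lines.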

How the data were processed

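RNA pools of 10 rats per tissue and age were hybridised by the authors to rat Affymetrix arrays, and the deposited values are linear intensities, 1 per probe set, made with MAS5 (version not given in the sources used here) and scaled to a target of 500. The adrenal gland is not analysed here. Genes were named through the array annotation, which gave 1 symbol to 12783 probe sets of 10411 genes, and per gene the probe set past 100 on the most arrays was kept. Members and lists were chosen with earlier results of these data known. Signals were floored at 100 and taken to log2, genes past 100 on at least 12 arrays were kept, and limma 3.58.1 (R 4.3.3) was fitted with tissue and age as factors (15 residual degrees of freedom) or with a slope per tissue (12), with Benjamini-Hochberg adjustment at 0.05. The fits were tested on simulated data. The p-values measure the spread over ages or tissues of pooled RNA, which need not be that between rats. The number of arrays limits the precision. Genes named are, per tissue, the 3 largest differences each way past the threshold, isoform pairs, 2-fold changes in several tissues, Ndufa10 and Cox5a, the 3 smallest p-values per age test, the 5 smallest of the slope test, genes with disagreeing probe sets and leading genes of the lists. Only part of these are printed, and others were picked after their values were seen. Alternatives were scalings, floors, filters, probe set averaging, array weights and left-out arrays. The comparison of isoform protein sequences was not made.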

Additional observations from a re-analysis of the deposited data

Results flagged for a closer look

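In 30 levels, those of 5 complexes in 6 tissues, 2 had an age that stood apart from the other 3 by more than Dixon's limit for 4 values, 0.829, and chance alone flags about 1 in 20. Complex III in spleen lymphocytes was at -0.678 at 4 months, against -0.388, -0.337 and -0.393 at the later ages. Complex III in kidney was at 0.725 at 18 months, against 0.918, 0.891 and 0.91 at the other ages.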

How the results depend on the processing

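Of 460 values of 33 named tissue differences under alternatives, 437 stayed past the threshold, 23 did not, and 0 reversed. Counts in kidney and the lower counts in spleen lymphocytes and bone stayed within 1.5 times of the main ones, but for the 2 members lower in kidney.

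Quantile normalization gave 25 members higher in hypothalamus, 21 higher and 17 lower in pituitary, 11 lower in liver and 1 higher in bone. It moved the level of complex III in liver to -0.029 and in bone to -0.340. Complex II in liver went to 0.077. Complex IV went to 0.058 in hypothalamus, 0.032 in pituitary, -0.406 in spleen lymphocytes, -0.028 in liver and 0.558 in kidney. Complex V went to 0.125 in pituitary, -0.552 in spleen lymphocytes, 0.043 in liver and 0.759 in kidney. The levels of complex III and IV in liver and complex IV in pituitary changed sign, as did 3 that lay within 1 SD of 0, complex IV in hypothalamus and complexes I (to 0.050) and V in pituitary.

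Centring on the median gave 7 members higher in hypothalamus, 2 in pituitary and 0 in bone. It moved complex I to -0.206 in pituitary, -0.527 in spleen lymphocytes and 0.712 in kidney. Complex II went to -0.478 in pituitary and 0.364 in liver, complex III to -0.665 in pituitary and -0.535 in bone. Complex IV went to -0.242 in pituitary and -0.175 in spleen lymphocytes, and complex V to -0.255 in pituitary, -0.299 in spleen lymphocytes and 0.686 in kidney.

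With the mean of the probe sets, 1 member was lower in liver and 1 higher in bone. Bone also had 1 higher with floors of 50 and 200, with array weights and without 3 arrays (hypothalamus at 10, kidney and bone at 18 months, singled out by earlier results), and kidney then had 1 lower. Leaving out 1 age gave 6 to 12 members higher in hypothalamus, 2 to 9 in pituitary and 1 in bone, 1 to 2 lower in kidney, and 0 to 1 trends in bone. Trends in bone were 0 with a floor of 50, no filter or array weights. Array weights called 2 trends in hypothalamus, Ndufs3 and Uqcrfs1, both down. A floor of 200 and late minus early ages each called 1 member with different slopes, Cox5a. At 1.5-fold, 42 member values were higher and 74 lower between ages. With at least 200 on both arrays 1 was higher, and after quantile normalization 11. The causes were not tested, save that the 1.5-fold limit is lower by construction and the limit of 200 leaves fewer values. Age, which links the tissues of the same rats, was a factor of the tissue comparison itself.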

Other observations

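Assembly factors of the complexes, genes that build them but are not part of them, were lower in bone for 18 of 28 and higher for 0 (64.3% and 0.0%, against 26.9% and 27.4% of all genes), with a median of -0.44. In spleen lymphocytes 8 were higher and 9 lower (28.6% and 32.1%), near the shares of all genes, 31.2% and 34.0%. The factor most above the other tissues there was Ndufaf4, which helps to assemble complex I (1.74), and Sdhaf1, which helps to mature Sdhb, was at 1.31 in spleen lymphocytes while Sdhb itself was at -1.37. In kidney 8 of 28 were higher and 2 lower (28.6% and 7.14%, against 23.6% and 31.4% of all genes). Of 6 measured regulators of mitochondrial biogenesis, the nuclear receptor Esrra was higher in kidney (1.11) and lower in liver (-0.60), and Polg2, the accessory subunit of the mitochondrial DNA polymerase, was higher in both (1.20 and 1.98).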
